A study of Homo sapiens with 15 samples.

Results

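The 8 largest cadherins tied to planar cell polarity, CELSR1, CELSR2, CELSR3, FAT1, FAT2, FAT3, FAT4 and DCHS1, were followed across 5 conditions of a human granulosa cell line. They were found by gene symbol in a table of 37787 genes, and all 8 were listed there. The set was chosen from earlier results on the same libraries, so every fold change and adjusted p given for these genes describes the contrast that helped to choose them and is no independent test.

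HGrC1 is an immortalized, non-luteinized granulosa cell line with normal FOXL2 alleles, used here at passage 14. Cells were lipofected for 4 h and cultured for 24 h without serum. The 5 conditions, with 3 libraries each lettered A, B and C, were empty vectors (Vectors), SMAD3 with wild-type FOXL2 (FOXL2WT), SMAD3 with the Cys134Trp mutant of adult granulosa cell tumours (FOXL2C134W), and each of the FOXL2 plasmids with a further plasmid for FOXO1-3A, a FOXO1 form that stays active in the nucleus (FOXL2WT + FOXO1 and FOXL2C134W + FOXO1). The SMAD3 plasmid was therefore present in every condition except Vectors. The proteins (FOXL2 and FOXO1-3A with a Flag tag) were overexpressed from plasmids in cells that kept their own FOXL2. Polyadenylated mRNA was sequenced with 75-bp single-end reads. The sources call the libraries replicates without saying that they came from separate cultures, so the p-values measure the spread between libraries, which may be technical.

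Planar cell polarity is the alignment of cells within the plane of a tissue. CELSR proteins are seven-pass cadherins of the core pathway and bind each other across neighbouring membranes, where they position Frizzled, Van Gogh-like, Dishevelled and Prickle proteins. FAT4 and DCHS1 form a second, heterophilic adhesion system in which DCHS1 acts as the ligand and FAT4 as the receptor, and which feeds into Hippo signalling. FAT1 is a related giant cadherin at cell-cell contacts and protrusions that also restrains YAP1, whereas FAT2 and FAT3 are better known from migrating epithelial cells and from neurons. Granulosa cells surround the oocyte as a layered epithelium held together by cadherin junctions.

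Library totals ran from 14962245 to 25339094 estimated counts. A pair of libraries stood apart from the others of their condition, FOXL2C134W replicate A (chi-square per degree of freedom 7.83 and 8.86 against B and C, with 2.60 between B and C) and FOXL2WT + FOXO1 replicate A (6.65 against both, with 2.82 between B and C). The transfected genes followed the labels. Mean FOXL2 was 8.73 CPM (counts scaled to the size of the library, TMM) in Vectors, 560.6 in FOXL2WT, 147.0 in FOXL2C134W, 383.7 in FOXL2WT + FOXO1 and 152.4 in FOXL2C134W + FOXO1. Mean SMAD3 was 249.3, 2768, 843.1, 969.3 and 391.7 CPM in the same order. Wild-type and mutant were thus compared at different levels of plasmid RNA, and SMAD3 RNA was lower with FOXO1 than without it for each FOXL2 form. These are levels of RNA and not of protein. From an anti-Flag immunoblot the paper reports balanced protein levels of wild-type FOXL2, the mutant and FOXO1, and it names no SMAD3 protein there. Mean FOXO1 was 117.2 CPM in FOXL2WT + FOXO1 and 43.2 CPM in FOXL2C134W + FOXO1, against 12.0 to 13.2 CPM elsewhere. Of 10 granulosa markers 6 had a median of at least 10 counts, among them GATA4 and NR5A1, whereas FSHR was at 0 counts in all 15 libraries. Of the markers of other cells, PTPRC and CD3E had a median of 1 and 0 counts, while KRT19, CD68 and COL1A1 were expressed. The other epithelial markers, EPCAM and CDH1, had a median of 137 and 6 counts. The endothelial markers CDH5, PECAM1 and VWF had a median of 80, 29 and 15 counts. The summed stromal markers lay between 1552 and 1626 CPM in Vectors and between 1097 and 1384 CPM in the other conditions. This sum is mostly COL1A1, with a median of 28181 counts. PDGFRB had 796, PDGFRA 23, COL1A2 17 and DCN 3, so the difference describes COL1A1 and not a cell type. Its part in the results was not tested. In bulk RNA, fewer cells of a kind and less RNA per cell cannot be told apart.

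The 8 genes covered a wide range of levels. On the length-normalized scale of TPM (a share of all transcripts after division by length), FAT1 ran from 31.4 to 63.0 over the 15 libraries and made up 81.8% to 90.1% of the summed TPM of the set. FAT4 followed with 2.57 to 5.07 TPM, CELSR2 with 0.959 to 2.18 and CELSR1 with 0.525 to 1.71. DCHS1 ran from 0.291 to 0.464 TPM, CELSR3 from 0.128 to 0.410 and FAT3 from 0.00771 to 0.356. The order of FAT1, FAT4 and CELSR2 was the same in 15 of 15 libraries. CELSR2 exceeded CELSR1 in 14, DCHS1 exceeded CELSR3 in 13 and CELSR3 exceeded FAT3 in 14 of the 15, and the ranges of these 3 neighbouring pairs overlapped. FAT2 had 0 counts in 13 libraries, 1 count in Vectors A and 2 counts in FOXL2WT B. A count of 0 allows up to 3 expected counts in a library, so a level below this limit could not be measured in the 13 libraries at 0. The receptor of the heterophilic pair was the partner with more RNA, with FAT4 at a median of 3.50 TPM and DCHS1 at a median of 0.373 TPM.

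The members lie on 6 chromosomes (GRCh38, GENCODE 44). CELSR2 occupies chr1:109249539-109275751 on the plus strand, CELSR3 chr3:48636463-48662886 on the minus strand and CELSR1 chr22:46360834-46537620 on the minus strand. FAT1 (chr4:186587794-186726722, minus) and FAT4 (chr4:125314918-125492932, plus) share chromosome 4, DCHS1 (chr11:6621330-6655809, minus) and FAT3 (chr11:92224818-92896473, plus) share chromosome 11, and FAT2 lies at chr5:151504092-151591331 on the minus strand. DCHS1 is overlapped by the antisense gene DCHS1-AS1, and FAT1, FAT2 and FAT3 by long noncoding genes on the other strand. Whether strand was used in the estimates was not given in the sources used here, so reads of such pairs may not be separable.

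What the genes share is length. Their longest annotated transcripts measure 10713 bases (DCHS1) to 19030 bases (FAT3). Weighted by transcript abundance, 5 of the 7 tested genes exceeded 8000 bases, with CELSR1 at 8606, CELSR3 at 8717, CELSR2 at 9876, DCHS1 at 10713 and FAT4 at 13238, while FAT1 stood at 7627 and FAT3 at 5783. The median of all tested genes was 2109 bases. By length the 7 ranked between 0.12% (FAT4) and 5.80% (FAT3) from the top of the 13868 tested genes. They split by base composition, with 60.6% to 61.9% G+C in CELSR1, CELSR2, CELSR3 and DCHS1 and 44.8% to 47.6% in FAT1, FAT3 and FAT4.

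Most reads fell on the full-length forms. Transcripts over 10000 bases took 95.8% of the FAT1 reads on the form of 14776 bases, 95.7% of those of CELSR2 (11015 bases) and 91.7% of those of CELSR1 (11389 bases), while DCHS1 has 1 transcript in the files. FAT4 was divided between a form of 16123 bases (83.0% of reads) and a shorter coding form of 9669 bases (16.8%). In FAT1 a short coding transcript of 1305 bases held 2.43% of the reads but 8.70 TPM at the median. A retained-intron transcript of 341 bases held 0.27% of the reads but 11.6 TPM, against 24.4 TPM for the full-length form. The TPM of the gene, its share of the set and its weighted length thus rest in part on few reads of short transcripts. The full-length share of CELSR1 was 93.1% ± 4.92 (SD, n = 3) in FOXL2C134W and 82.2% ± 3.83 in FOXL2C134W + FOXO1, estimated from at most 220 reads of the gene per library.

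The sequence before the start was read where a window was at hand. RefSeq start-site windows (GRCh38.p14) were matched for 4 members, CELSR2, CELSR3, FAT1 and FAT2, and the 250 bases before the start are printed for the member with the largest fold change, for the most abundant one and for the one at or near 0 counts, 5′ to 3′, with CpG dinucleotides in capitals.
CELSR2, chr1:109249289-109249538, plus strand: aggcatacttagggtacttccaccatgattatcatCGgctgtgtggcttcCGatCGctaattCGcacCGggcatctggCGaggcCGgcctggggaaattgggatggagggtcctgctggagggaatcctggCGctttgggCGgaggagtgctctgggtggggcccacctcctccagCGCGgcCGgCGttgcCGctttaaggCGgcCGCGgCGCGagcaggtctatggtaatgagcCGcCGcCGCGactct
FAT1, chr4:186726697-186726946, minus strand: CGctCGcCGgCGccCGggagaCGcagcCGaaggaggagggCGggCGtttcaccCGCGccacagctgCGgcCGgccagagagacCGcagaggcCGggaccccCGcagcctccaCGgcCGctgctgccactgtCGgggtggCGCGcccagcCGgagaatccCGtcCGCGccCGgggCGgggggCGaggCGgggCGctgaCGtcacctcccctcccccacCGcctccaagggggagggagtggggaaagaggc
FAT2, chr5:151591332-151591581, minus strand: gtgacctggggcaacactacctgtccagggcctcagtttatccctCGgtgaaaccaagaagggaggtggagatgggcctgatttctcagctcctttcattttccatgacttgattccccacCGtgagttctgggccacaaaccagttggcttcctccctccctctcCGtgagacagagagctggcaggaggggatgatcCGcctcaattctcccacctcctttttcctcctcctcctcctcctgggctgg
CELSR2 held 23 CpG dinucleotides with 64.4% G+C, CELSR3 held 25 with 65.2%, and FAT1 held 32 with 78.0%, as many as before its other annotated start. FAT2 held 4 with 56.8% G+C, where the median of 35116 such windows was 11. Letters of a forkhead motif, GTAAACA on either strand, were found in none of these windows and in 2.98% of all of them. The palindromic SMAD motif GTCTAGAC was likewise not found, against 0.182% of all windows. The GC-rich SMAD motif GGCGCC, also a palindrome, occurred 1 time before the FAT1 start shown and 2 times before its other annotated start. It occurred 1 time in CELSR3, against 16.4% of all windows with at least 1 match. A match is a description of letters and not a bound site.

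**Figure D1:**
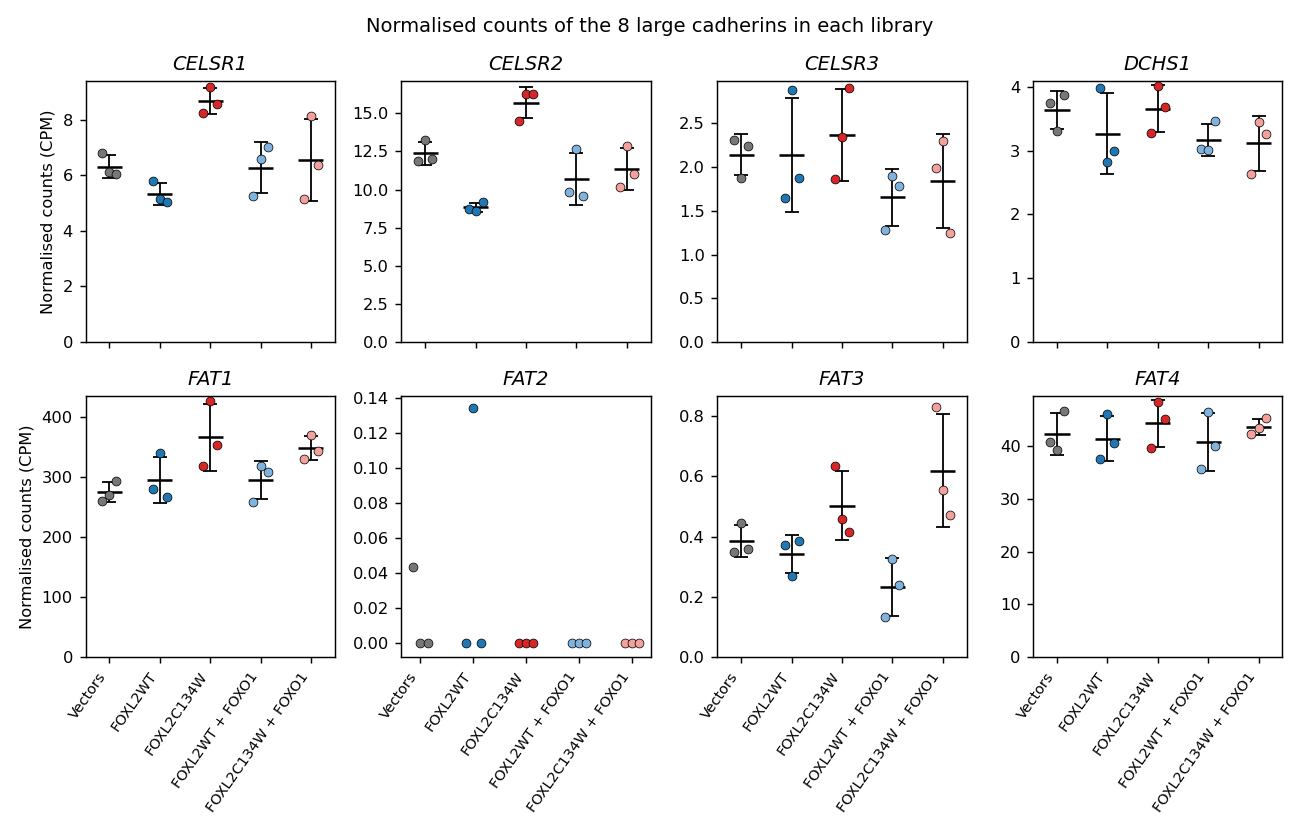
Normalised counts (CPM, edgeR TMM scaling) of each member in every library, with the mean and SD per condition (n = 3); for FAT2 only the points are drawn. CELSR1 and CELSR2 are highest in FOXL2C134W, where all 3 libraries lie above all FOXL2WT libraries.

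Mutant and wild-type FOXL2 were compared first, the contrast at the centre of the study's design. CELSR1, CELSR2 and FAT1 were higher in FOXL2C134W than in FOXL2WT, by 1.63-fold, 1.77-fold and 1.24-fold. By the quasi-likelihood test of edgeR with Benjamini-Hochberg adjustment over all tested genes, 3 of the 7 tested members were called at an adjusted p under 0.05, all of them higher, where 11.2% of all 13868 tested genes were called and 7.13% were called higher. The median log2 fold change of the 7 members was 0.31, beside -0.01 over all tested genes. The 3 libraries of FOXL2C134W lay above the 3 of FOXL2WT for 3 members, CELSR1, CELSR2 and FAT3, against 14.8% of all tested genes. FAT3 passed the filter through libraries of the mutant conditions, where it was high, so its separation is no evidence of a difference. The contrast took part in the choice of the members, so nothing is read from these counts.

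CELSR2, the seven-pass cadherin with the largest difference, stood at 8.73, 8.59 and 9.19 CPM in FOXL2WT and at 14.5, 16.3 and 16.3 CPM in FOXL2C134W. The groups were well separated, with means of 8.84 ± 0.313 and 15.7 ± 1.02 CPM (SD, n = 3). The log2 fold change was 0.82 (SE 0.11, adjusted p = 1.2e-04), and it was called in all 15 fits that left out 1 library and under all 12 alternatives. CELSR1, the paralogue best known from neural tube and skin polarity, measured 5.80, 5.17 and 5.04 CPM in FOXL2WT and 8.27, 9.19 and 8.57 CPM in FOXL2C134W. Its groups did not overlap either, and the log2 fold change was 0.70 (SE 0.14, adjusted p = 0.0033), called in the same 15 and 12 fits. CELSR3, the mainly neuronal paralogue, measured 1.65, 2.89 and 1.88 CPM in FOXL2WT and 1.86, 2.34 and 2.90 CPM in FOXL2C134W. These groups overlapped, and its log2 fold change of 0.17 had a 95% interval (1.96 SE to each side) of -0.33 to 0.66, which includes 0.

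Of the FAT genes, FAT1 measured 280.0, 339.8 and 267.0 CPM in FOXL2WT and 318.1, 426.7 and 354.5 CPM in FOXL2C134W. The lowest mutant library, A, lay below the highest wild-type library, B. The log2 fold change of 0.31 (SE 0.10) reached an adjusted p of 0.049, and 10 of the 15 fits without 1 library lost the call. Within the compared conditions it fell to 0.20 without FOXL2C134W B (adjusted p = 0.27), 0.25 without FOXL2WT C (0.19) and 0.28 without FOXL2WT A (0.17), and it was 0.34 without FOXL2C134W C (0.09). The other 6 losses came without Vectors A, B or C, FOXL2WT + FOXO1 B or C, or FOXL2C134W + FOXO1 A. These libraries are in neither compared condition and enter through the filter, the scaling, the shared spread and the adjustment. The values were 0.31 to 0.32, with adjusted p from 0.05 to 0.063. FAT4, the DCHS1 receptor, measured 37.5, 46.1 and 40.6 CPM in FOXL2WT and 39.5, 48.3 and 45.1 CPM in FOXL2C134W, with overlapping groups and a log2 fold change of 0.10 (95% interval -0.09 to 0.29). Its ligand DCHS1 measured 3.99, 2.82 and 2.99 CPM against 3.28, 4.01 and 3.69 CPM, again overlapping, with 0.16 (95% interval -0.15 to 0.47). FAT3, with 2 to 18 counts per library, measured 0.373, 0.269 and 0.385 CPM against 0.633, 0.460 and 0.415 CPM. At this depth its log2 fold change of 0.53 (SE 0.40) could not be told from 0 (adjusted p = 0.44).

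**Figure D2:**
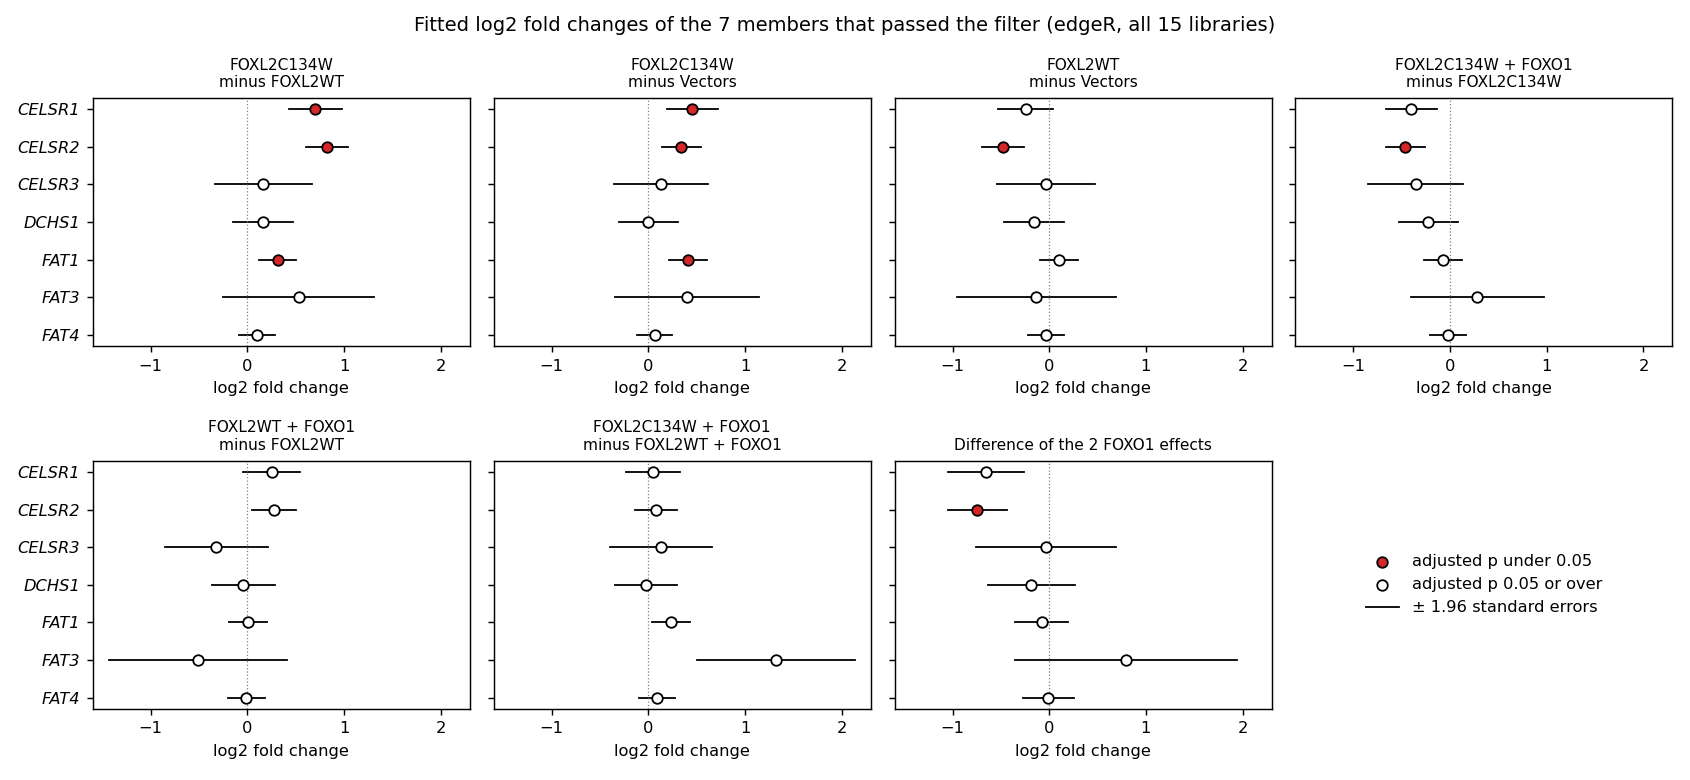
Log2 fold change of each tested member in the 6 pairwise comparisons and in the difference of both FOXO1 effects, with 1.96 standard errors to each side; filled points have an adjusted p under 0.05. CELSR2 is filled in 5 of the 7 panels, CELSR1 and FAT1 in 2.

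Long transcripts as a class moved with this contrast. Among the 229 other tested genes with a transcript length of 8000 bases or more, the median log2 fold change of FOXL2C134W minus FOXL2WT was 0.22, and 34.9% were called higher. In genes under 1000 bases the median was -0.09 and 0.59% were called higher. The shift stood out in the libraries FOXL2C134W B and C, where those 229 genes lay 0.23 and 0.16 above their own mean over all libraries (median, log2 scale), against -0.02 in FOXL2C134W A and -0.12 to -0.04 in FOXL2WT. With an offset that removes the trend with length in each library, CELSR2 stood at 0.59 (adjusted p = 6.7e-04) and CELSR1 at 0.50 (adjusted p = 0.016), and with offsets for length and G+C at 0.56 and 0.47 (3.7e-04 and 0.013). Both calls thus held, at a smaller size. FAT1 went to 0.13 with the length offset (adjusted p = 0.30) and lost the call. CELSR3, FAT4 and DCHS1 went to -0.04, -0.18 and -0.09, none of them called. The values of CELSR3, FAT4 and DCHS1 as reported lay below the median of the other long genes.

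**Figure D3:**
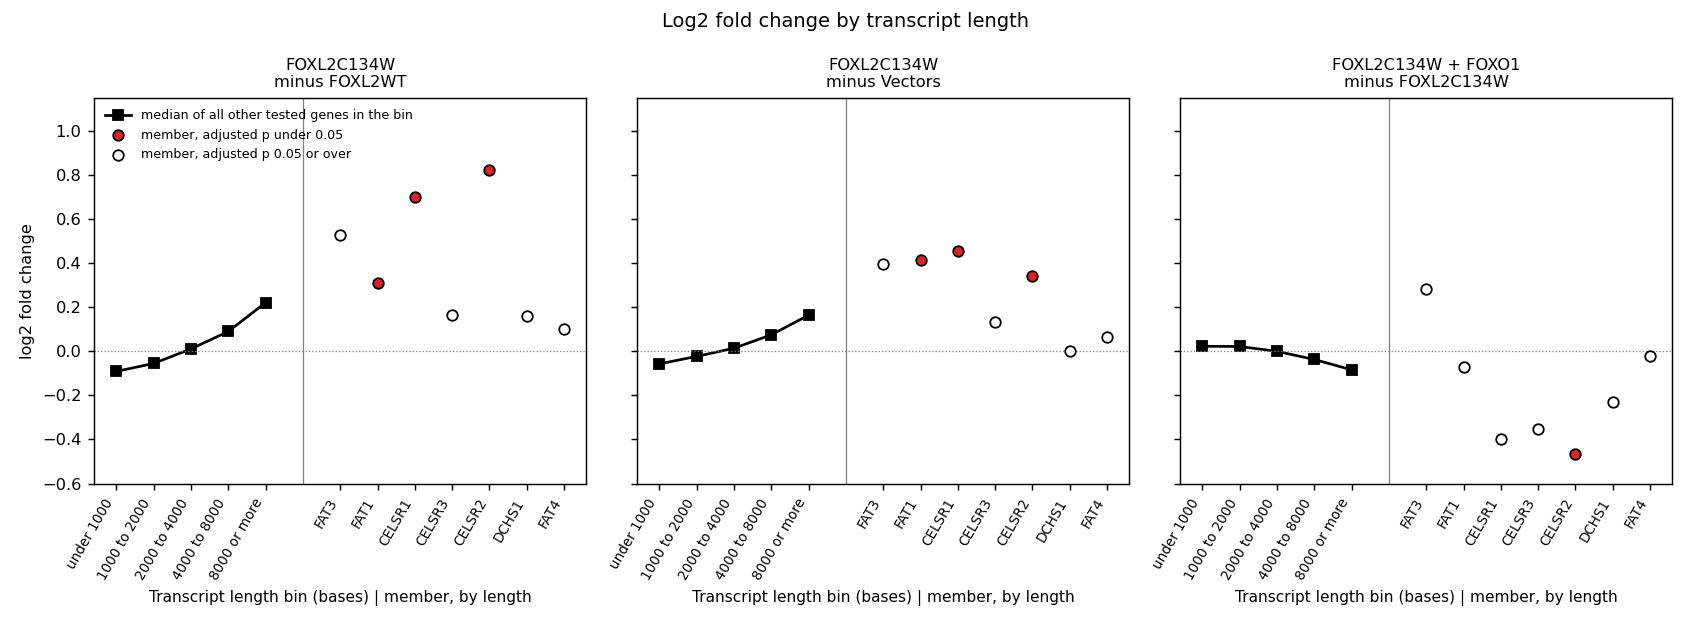
Median log2 fold change of all other tested genes in 5 bins of transcript length, beside the values of the 7 tested members in order of length, for 3 comparisons. In FOXL2C134W minus FOXL2WT the medians run from -0.09 to 0.22, and CELSR1, CELSR2, FAT1 and FAT3 lie above the 0.22 of the longest bin.

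Setting each FOXL2 form against empty vectors places Vectors between them for CELSR2. Vectors carried neither FOXL2 nor SMAD3 from a plasmid, so their parts cannot be told apart in comparisons with Vectors. Mean SMAD3 was 249.3 CPM in Vectors, 2768 CPM in FOXL2WT and 843.1 CPM in FOXL2C134W. CELSR2 measured 11.9, 13.3 and 12.0 CPM in Vectors, all above the FOXL2WT libraries and all below the FOXL2C134W libraries. In FOXL2WT minus Vectors it fell by 0.48 on the log2 scale (SE 0.11, adjusted p = 0.015). It was the only 1 of 7 members called there, where 3.61% of tested genes were called lower, and no member was called higher. The call was kept with the length offset (-0.40, adjusted p = 0.019) and lost without Vectors B (-0.43, adjusted p = 0.06), FOXL2WT A (-0.47, 0.063) or FOXL2WT B (-0.46, 0.071). CELSR1 measured 6.80, 6.13 and 6.04 CPM in Vectors, above all FOXL2WT libraries, with a log2 fold change of -0.25 (SE 0.15, adjusted p = 0.36). The FOXL2WT libraries lay below Vectors without overlap, as for CELSR1 and CELSR2, in 15.9% of all tested genes. FAT1 measured 261.0, 270.7 and 293.9 CPM in Vectors and overlapped with FOXL2WT, with 0.10 (95% interval -0.10 to 0.30).

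In FOXL2C134W minus Vectors, CELSR1, CELSR2 and FAT1 were higher, with log2 fold changes of 0.46 (SE 0.13, adjusted p = 0.028), 0.34 (SE 0.10, adjusted p = 0.03) and 0.41 (SE 0.10, adjusted p = 0.0082). These were 3 of 7 members called, all higher, against 14.7% of all tested genes called and 7.48% called higher. For the same 3 genes the libraries of the groups did not overlap, against 15.7% of all tested genes that lay higher in this way. This contrast shares its FOXL2C134W libraries with the one before, so the pair of contrasts was not independent. Here the median of the other genes of 8000 bases or more was 0.16, and with the length offset CELSR1 stood at 0.33 (adjusted p = 0.079) and CELSR2 at 0.19 (adjusted p = 0.18), no longer called, while FAT1 stood at 0.29 (adjusted p = 0.0098). DESeq2 with transcript length offsets called none of the 3. Without FOXL2C134W B none was called either, with CELSR1 at 0.42 (adjusted p = 0.10), CELSR2 at 0.32 (0.10) and FAT1 at 0.30 (0.062). CELSR1 also lost its call without Vectors B (0.44, adjusted p = 0.089), Vectors C (0.43, 0.097) or FOXL2C134W C (0.47, 0.058), and CELSR2 without Vectors A (0.32, 0.092), Vectors C (0.33, 0.098) or FOXL2C134W C (0.32, 0.09). For CELSR3, FAT3, FAT4 and DCHS1 the log2 fold changes ran from 0.00 (DCHS1, 95% interval -0.30 to 0.30) to 0.40 (FAT3, -0.34 to 1.14).

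FOXO1, the antagonist of FOXL2, was then added to the mutant. Mean SMAD3 also fell, from 843.1 CPM in FOXL2C134W to 391.7 CPM in FOXL2C134W + FOXO1. More FOXO1 and less SMAD3 cannot be told apart in this comparison. CELSR2 went from 14.5, 16.3 and 16.3 CPM in FOXL2C134W to 10.2, 12.9 and 11.0 CPM in FOXL2C134W + FOXO1, without overlap with FOXL2C134W and overlapping the Vectors libraries. It fell by 0.47 on the log2 scale (SE 0.10, adjusted p = 0.041) and was the only 1 of 7 members called, where 0.707% of all tested genes were called lower. CELSR1 went to 5.17, 8.14 and 6.36 CPM, also below every FOXL2C134W library, with -0.40 (SE 0.13, adjusted p = 0.21). Libraries lay lower without overlap in this way in 7.72% of all tested genes. Without FOXL2C134W + FOXO1 B, its highest library, CELSR1 reached -0.59 and was called (adjusted p = 0.027). In DESeq2 with offsets for the length of the transcripts present in each library CELSR1 stood at 0.07 (adjusted p = 0.99). Its full-length share was 78.1% to 85.7% of reads in FOXL2C134W + FOXO1 against 90.0% to 98.8% in FOXL2C134W, and the part of this share in the value was not tested. FAT1 measured 331.2, 370.9 and 343.2 CPM and overlapped with FOXL2C134W, at -0.07 (95% interval -0.27 to 0.12). The CELSR2 call was close to the threshold. It was lost without FOXL2C134W B (-0.44, adjusted p = 0.17) or C (-0.44, 0.19), without FOXL2C134W + FOXO1 A (-0.39, 0.30) or C (-0.45, 0.14), and, at -0.47 with adjusted p from 0.053 to 0.061, without Vectors B or C or FOXL2WT A or C. It was also lost with the length offset (-0.36, adjusted p = 0.078), the G+C offset (-0.42, 0.086) and both (-0.31, 0.11). The median of the other long genes was -0.08 in this comparison.

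Adding FOXO1 to wild-type FOXL2 gave the opposite direction for CELSR2, without a call. Mean FOXL2 was also lower, at 383.7 CPM against 560.6 CPM in FOXL2WT, and so was mean SMAD3, at 969.3 against 2768 CPM. Their part was not tested. CELSR2 measured 9.82, 12.7 and 9.58 CPM in FOXL2WT + FOXO1, with a log2 fold change of 0.28 (SE 0.12, adjusted p = 0.49). These values were all above the FOXL2WT libraries, against 6.89% of all tested genes that lay higher in this way. CELSR1 measured 5.25, 6.59 and 7.03 CPM and overlapped with FOXL2WT, with 0.25 (SE 0.15, adjusted p = 0.65). None of the 7 members was called, where 0.0505% of tested genes were. At an unadjusted p under 0.05 from the edgeR model 1 member passed, CELSR2, against 9.13% of all tested genes. DESeq2 gave an adjusted p for FAT1 and FAT4 alone, 2 of the 7 members, and called neither, so it gives no call on CELSR2. The other alternatives called none.

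The difference between the FOXO1 effects was tested directly. For CELSR2 the effect of FOXO1 in FOXL2C134W minus that in FOXL2WT was -0.74 on the log2 scale (SE 0.16, edgeR adjusted p = 0.021), 1 of 7 members called against 1.38% of all tested genes. It held under all 12 alternatives, at -0.60 with the length offset (adjusted p = 0.033) and at -1.09 in DESeq2 with transcript length offsets. It was lost in 6 of the 15 fits without 1 library, with values of -0.59 (FOXL2WT + FOXO1 B left out, adjusted p = 0.082), -0.67 (FOXL2C134W + FOXO1 A, 0.079), -0.72 (FOXL2C134W B, 0.058), -0.72 (FOXL2C134W C, 0.058), -0.73 (FOXL2WT B, 0.069) and -0.73 (FOXL2C134W + FOXO1 C, 0.051). CELSR1 had a difference of the same sign, -0.65 (SE 0.20, adjusted p = 0.13), which was called without FOXL2C134W + FOXO1 B (-0.85, adjusted p = 0.019). For FAT1 and FAT4 the differences were -0.08 (95% interval -0.35 to 0.20) and -0.01 (-0.28 to 0.25), and for DCHS1 and CELSR3 they were -0.18 (-0.63 to 0.26) and -0.03 (-0.76 to 0.69). The effects share no libraries between FOXL2C134W and FOXL2WT, but the transfected genes moved unequally when FOXO1 was added. SMAD3 fell by 1.11 and 1.51 on the log2 scale and FOXO1 itself rose by 1.85 and 3.26, in mutant and wild-type respectively. The log2 fold change of FOXL2 was 0.05 in the mutant and -0.55 in the wild-type (edgeR adjusted p = 0.031). The part of these amounts was not tested.

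With FOXO1 present in both, mutant and wild-type were compared again. CELSR2 differed by 0.08 (SE 0.11, 95% interval -0.14 to 0.30) and CELSR1 by 0.05 (SE 0.14, 95% interval -0.23 to 0.33) in FOXL2C134W + FOXO1 minus FOXL2WT + FOXO1. Whether this differs from the contrast without FOXO1 is the same test as the difference of the FOXO1 effects above, called for CELSR2 and not for CELSR1. None of the 7 members was called, against 0.144% of tested genes. At an unadjusted p under 0.05 from the edgeR model 2 members passed, FAT1 at 0.24 (SE 0.10) and FAT3 at 1.32 (SE 0.42), against 13.5% of all tested genes. DESeq2 gave an adjusted p for FAT1 and FAT4 alone and called neither, and a filter of at least 1 count in any library called FAT1. The FAT1 libraries did not overlap, at 258.6, 319.6 and 308.2 CPM in FOXL2WT + FOXO1 and 331.2, 370.9 and 343.2 CPM in FOXL2C134W + FOXO1, and neither did those of FAT3, at 0.135, 0.325 and 0.241 CPM against 0.831, 0.554 and 0.473 CPM. Libraries lay higher without overlap in this way in 7.36% of all tested genes. FAT3 rested on 2 to 18 counts per library, and in DESeq2 with transcript length offsets it stood at -0.28 (adjusted p = 0.96). It passed the filter through libraries of the mutant conditions, with 11 to 18 counts in FOXL2C134W + FOXO1 and 2 to 7 in FOXL2WT + FOXO1. Its separation and its unadjusted p are therefore no evidence of a difference.

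**Figure D4:**
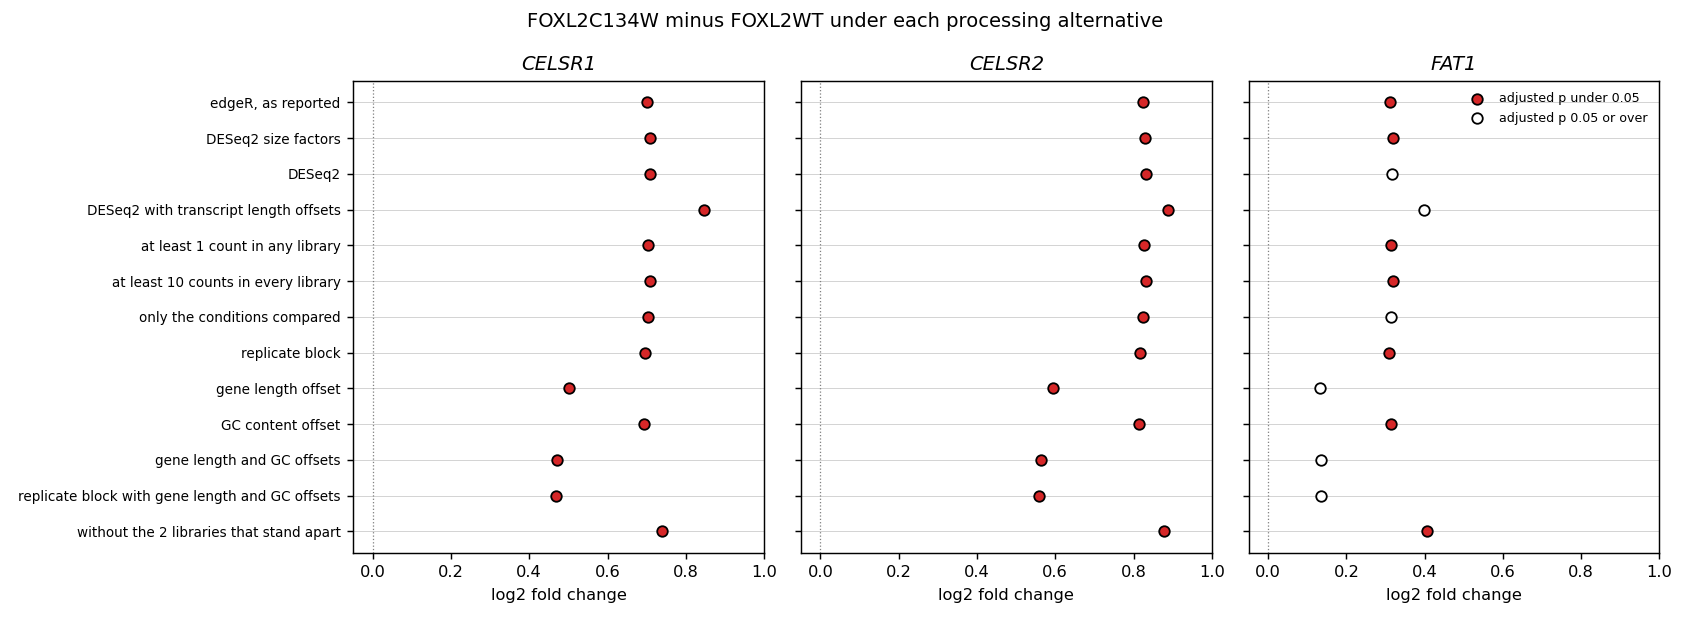
Log2 fold change of CELSR1, CELSR2 and FAT1 in FOXL2C134W minus FOXL2WT as reported and under 12 processing alternatives; filled points have an adjusted p under 0.05. CELSR1 and CELSR2 stay filled throughout and move lowest with length and G+C offsets, whereas FAT1 is open under 6 of the 12.

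Across the 15 libraries the members did not move as one. Pearson r between log2-CPM values was 0.84 for CELSR1 with CELSR2 and 0.73 for FAT1 with FAT4. It was 0.11 for FAT4 with its ligand DCHS1, and the 21 pairs ran from -0.05 to 0.84. These points share condition and depth, so the values are descriptions. The genes most like CELSR2 over the 15 libraries were LTBP2 (r = 0.95), MKI67 (0.94) and LAMA5 (0.94), and those most like CELSR1 were AKNA (0.93), DLG5 (0.92) and PLXND1 (0.91). FAT1 ran with ABL2 (0.97) and BIRC6 (0.97), and FAT4 with LRP6 (0.88), BMPR2 (0.87) and MED13 (0.87). The 5 genes named beside FAT1 and FAT4 all had a transcript length over 8000 bases, between 8065 (ABL2) and 9390 (MED13). DCHS1 ran with MUC1 (0.90), ZSCAN29 (0.83) and LINC00342 (0.82), CELSR3 with WHRN (0.82), ZNF852 (0.80) and CLCN6 (0.78), and FAT3 with PHKA2 (0.92) and EXO5 (0.87), the last 2 resting on few counts of FAT3.

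Genes that act with these cadherins were followed as lists, whose counts are descriptions. In FOXL2C134W minus FOXL2WT they stand beside 7.13% of all tested genes called higher and 4.12% called lower. Of 21 listed core polarity genes 18 were tested, and 3 of them (16.7%) were called higher and 0 lower, with a median log2 fold change of 0.00 for the list. They were SCRIB, a basolateral scaffold, at 0.32 (SE 0.05, adjusted p = 9.5e-04), and the Dishevelled genes DVL3 at 0.23 and DVL1 at 0.20 (adjusted p = 0.023 and 0.041). With the length offset DVL3 (0.17, adjusted p = 0.077) and DVL1 (0.17, adjusted p = 0.077) lost the call. The list then had 1 gene called higher and 1 lower, beside 821 higher and 673 lower of all 13868 tested genes. In DESeq2 with transcript length offsets SCRIB, DVL3 and DVL1 all lost the call, SCRIB at 0.25 (adjusted p = 0.61). DVL3 also lost it in 3 of the 15 fits without 1 library (FOXL2WT A or B, or FOXL2C134W B, adjusted p from 0.063 to 0.11). DVL1 lost it in 7, without any 1 of the FOXL2WT or FOXL2C134W libraries or FOXL2WT + FOXO1 C (0.051 to 0.13), and without both libraries that stood apart (0.068). Against Vectors 2 of the 18 were called higher in FOXL2C134W and 1 in FOXL2WT, where 7.48% and 2.46% of all tested genes were. When FOXO1 was added to the mutant 1 was called lower, where 0.707% of all tested genes were. It was SCRIB again, at -0.24 (SE 0.05, adjusted p = 0.04). This call was lost under 6 of 12 alternatives and in 8 of the 15 fits without 1 library, with values from -0.25 to -0.21 and adjusted p from 0.051 to 0.28 (without Vectors B or C, FOXL2WT A, FOXL2C134W B or C, FOXL2WT + FOXO1 B, or FOXL2C134W + FOXO1 A or C). By edgeR 0 of the 18 were called when FOXO1 was added to FOXL2WT, and 0 in the difference of both effects. At an unadjusted p under 0.05 from the edgeR model 3 and 4 passed, beside 9.13% and 12.5% of all tested genes. DESeq2 called 0 and 2 there, beside 62 of 6071 and 366 of 10910 genes to which it gave an adjusted p.

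Among the polarity effectors, all 15 listed genes were tested and 3 (against 7.13% of all tested genes) were called higher in FOXL2C134W than in FOXL2WT and 0 lower, with a list median of 0.09. They were DLG5, a junctional scaffold, at 0.42 (SE 0.07, adjusted p = 0.001), and the cytoskeletal kinases ROCK2 at 0.40 and ROCK1 at 0.37 (adjusted p = 0.019 and 0.0085). ROCK2 lost the call in DESeq2 with transcript length offsets (0.41, adjusted p = 0.099) and without FOXL2WT B (0.39, 0.08), FOXL2WT C (0.39, 0.066), FOXL2C134W B (0.31, 0.11) or FOXL2C134W C (0.36, 0.086). ROCK1 lost it without FOXL2C134W C (0.29, adjusted p = 0.058). With the length offset the list had 3 called higher and 0 lower, beside 821 and 673 of all 13868 tested genes. Against Vectors it had 4 higher and 0 lower in FOXL2C134W, beside 7.48% and 7.24% of all tested genes, and 1 higher and 1 lower in FOXL2WT, beside 2.46% and 3.61%. By edgeR 0 were called in the comparisons with FOXO1, and DESeq2 called 1 in each. Of all genes with an adjusted p, DESeq2 called between 62 of 6071 (FOXO1 added to FOXL2WT) and 366 of 10910 (difference of both effects). At an unadjusted p under 0.05 from the edgeR model 1 to 2 genes passed in each, beside 9.13% to 13.5% of all tested genes. Of 22 genes of the Fat-Dachsous branch and Hippo signalling 21 were tested, with 2 called higher in FOXL2C134W than in FOXL2WT (9.52%, near the 7.13% of all tested genes), 0 lower and a list median of 0.08. They were TAOK2, a kinase upstream of Hippo, at 0.29 (SE 0.06, adjusted p = 0.0028) and WWC1, a Hippo scaffold, at 0.24 (SE 0.05, adjusted p = 0.0051), which went to -0.14 without a call once DESeq2 was given offsets for transcript length. With the length offset this list had 2 called higher and 3 lower, beside 821 and 673 of all 13868 tested genes. Against Vectors it had 5 higher and 3 lower in FOXL2C134W, beside 7.48% and 7.24% of all tested genes. In FOXL2WT it had 2 higher and 1 lower, beside 2.46% and 3.61%. By edgeR 0 were called in the comparisons with FOXO1, and DESeq2 also called 0. At an unadjusted p under 0.05 from the edgeR model 4 of the 21 passed in each, beside 9.13% to 13.5% of all tested genes.

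Of 30 other cadherins and protocadherins 14 were tested, and 2 (14.3%, against 7.13% of all tested genes) were called higher in FOXL2C134W than in FOXL2WT and 0 lower, with a list median of 0.05. They were CDH4, a classical cadherin of neural tissue, at 0.53 (SE 0.11, adjusted p = 0.0055) and CLSTN1, a calsyntenin, at 0.34 (SE 0.05, adjusted p = 5.6e-04). CDH4 lost the call in DESeq2 with transcript length offsets (0.42, adjusted p = 0.16). With the length offset the counts were again 2 and 0, beside 821 and 673 of all 13868 tested genes. Against Vectors the list had 2 higher and 2 lower in FOXL2C134W, beside 7.48% and 7.24% of all tested genes. In FOXL2WT it had 0 higher and 2 lower, beside 2.46% and 3.61%. By edgeR 0 were called in the comparisons with FOXO1. At an unadjusted p under 0.05 from the edgeR model 2 to 3 genes passed in each, beside 9.13% to 13.5% of all tested genes. DESeq2 called 1 lower when FOXO1 was added to the mutant and 1 lower in the difference of both effects. Among all 10910 genes with an adjusted p it called 216 and 315 lower.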

How the data were processed

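RNA of 15 HGrC1 libraries, 3 per condition, was analysed. The authors estimated transcript abundance with salmon 1.1.0 on hg38 (GENCODE identifiers, release not given in the sources used here) and summed it to genes. The deposited gene table holds these estimated counts rounded and without normalization, and the deposited transcript tables hold TPM, estimated reads and lengths. Conditions and letters came from the labels.

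With edgeR 4.0.16 (under R 4.3.3), all 15 libraries were fitted together after filterByExpr (13868 genes) and TMM scaling, and conditions were compared by quasi-likelihood F tests with Benjamini-Hochberg adjustment (called under 0.05). CPM are TMM-scaled. Log2-CPM had a prior count of 2. FAT2 did not pass the filter. Alternatives were DESeq2 1.42.0 (with and without transcript length offsets), its size factors, 2 other filters, only the conditions compared, a replicate block, length and G+C offsets (lowess span 0.3), and leaving out each library. The fit was tested on simulated data. Weighted lengths and G+C used TPM and GENCODE 44 transcripts, which hold 98.4% of those in the files. Totals of 14962245 to 25339094 counts limit the low members, and intervals for single values cover the spread between libraries.

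The members and lists were chosen with earlier results of these data known. Named were the members, the transfected genes, the 3 genes most correlated with each tested member (2 of these genes are not reported here), and from each list the 3 called genes with the largest change in FOXL2C134W minus FOXL2WT. Genes of other comparisons named outside this rule were chosen after their values were seen. Leaving out both libraries that stood apart was added after seeing the data.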

Additional observations from a re-analysis of the deposited data

Results flagged for a closer look

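The change of CELSR2 on adding the FOXO1 plasmid differed between mutant and wild-type FOXL2, by a test of the difference itself. The effect of FOXO1 in FOXL2C134W minus its effect in FOXL2WT was -0.74 on the log2 scale (edgeR adjusted p = 0.021), with a fall of 0.47 in the mutant and a value of 0.28 in the wild-type. All 3 FOXL2C134W + FOXO1 libraries lay below the FOXL2C134W libraries, as in 7.72% of all tested genes. All 3 FOXL2WT + FOXO1 libraries lay above the FOXL2WT libraries, as in 6.89% of all tested genes. The difference was called in 9 of the 15 fits that left out 1 library. SMAD3 fell by 1.11 in the mutant and 1.51 in the wild-type, and FOXO1 rose by 1.85 and 3.26 (log2 scale). FOXL2 itself changed by 0.05 in the mutant and by -0.55 in the wild-type. The part of these unequal amounts was not tested. CELSR2 was chosen with these data in view, so the value is a description.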

How the results depend on the processing

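CELSR1 and CELSR2 kept their direction and call in FOXL2C134W minus FOXL2WT under every alternative run. FAT1, also called there as reported, was called under 6 of the 12 alternatives and in 5 of the 15 fits without 1 library. Counts of called members in the other comparisons moved as follows. In FOXL2C134W minus Vectors (3 called) the count was 0 in DESeq2 with transcript length offsets, 1 with the gene length offset, 1 with the gene length and GC offsets and 1 with the replicate block with gene length and GC offsets. In FOXL2C134W + FOXO1 minus FOXL2C134W (1 called) it was 0 with only the conditions compared, 0 with the gene length offset, 0 with the GC content offset, 0 with gene length and GC offsets and 0 with these and the replicate block. In FOXL2C134W + FOXO1 minus FOXL2WT + FOXO1 (0 called) it was 1, FAT1, with at least 1 count in any library. In the difference of the FOXO1 effects (1 called) it was 2 with at least 1 count in any library and 2 without both libraries that stood apart, CELSR1 being added each time. The cause was not tested. Without single libraries the counts ran from 0 to 3 in FOXL2C134W minus Vectors, 0 to 1 in FOXL2WT minus Vectors, 0 to 2 in FOXL2C134W + FOXO1 minus FOXL2C134W and 0 to 2 in the difference of the FOXO1 effects. WWC1 in FOXL2C134W minus FOXL2WT went to -0.14 once DESeq2 was given offsets for transcript length.

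Over all genes, the calls in FOXL2C134W minus FOXL2WT ran from 759 (DESeq2 with transcript length offsets) to 2646 (without both libraries that stood apart), where 1560 were called as reported. They ran from 971 to 2525 in FOXL2C134W minus Vectors (2041 as reported), 496 to 1690 in FOXL2WT minus Vectors (842), 32 to 463 in FOXL2C134W + FOXO1 minus FOXL2C134W (99), 7 to 260 in FOXL2WT + FOXO1 minus FOXL2WT (7), 9 to 446 in FOXL2C134W + FOXO1 minus FOXL2WT + FOXO1 (20) and 120 to 606 in the difference of the effects (192). Leaving out 1 library moved these counts by over 1.5 times in every comparison. They ran from 772 (without FOXL2WT B) to 2120 (FOXL2C134W A) in FOXL2C134W minus FOXL2WT, 1275 (FOXL2C134W B) to 2295 in FOXL2C134W minus Vectors, 305 (Vectors A) to 1086 in FOXL2WT minus Vectors, 5 (FOXL2C134W B or C, or FOXL2C134W + FOXO1 C) to 355 (FOXL2C134W A) in FOXL2C134W + FOXO1 minus FOXL2C134W, 2 (FOXL2WT + FOXO1 B) to 10 in FOXL2WT + FOXO1 minus FOXL2WT, 7 (FOXL2C134W + FOXO1 A) to 38 (FOXL2C134W A) in FOXL2C134W + FOXO1 minus FOXL2WT + FOXO1, and 45 (FOXL2C134W + FOXO1 A) to 423 (FOXL2C134W A) in the difference of the effects.

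Over all pairs of libraries, those with the same letter were no more alike than those with other letters. Deviations of same-lettered libraries from their condition means correlated at a median of 0.0035, and 2 of 30 pairs exceeded 0.1. For libraries of other letters the median was 0.0055, and 4 of 60 pairs exceeded 0.1. The highest value, 0.166, joined FOXL2C134W A and FOXL2WT + FOXO1 A, the libraries that stood apart, and its cause was not tested. The replicate block alone changed no member's call in any comparison, of the genes named from the lists it took the call from SCRIB in FOXL2C134W + FOXO1 minus FOXL2C134W (-0.24, adjusted p = 0.064), and CELSR2 in FOXL2C134W minus FOXL2WT was 0.82 with it.

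Depth limits FAT2 and FAT3, with at most 2 and 18 counts per library, and leaves CELSR3 and DCHS1 with at most 63 and 97.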
